A study of Mus musculus with 4 samples.

Results

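The replicative DNA polymerases and the factors that work with them at the replication fork were compared between mouse embryonic stem cells (ESCs) in serum and in 2i. They were taken by gene symbol as Pola1, Pola2, Prim1, Prim2, Pold1, Pole, Pcna, Rfc1, Fen1 and Lig1. No measured value entered the rule, but earlier results of these data were known when the genes were chosen. All 10 were found, each by 1 Ensembl identifier, among the 14533 genes of the deposited table, and all 10 were among the 13005 genes with enough counts to be tested. The study asked how transcription in G1-phase differs between ESCs in the 2 culture conditions.

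Per the labels, serum ESCs and 2i ESCs had both been adapted to their medium for over 20 days. The labels place them in late G1-phase when collected, as do the study's legends for its RNA-seq, whereas the series description says early G1-phase. Each condition had 2 libraries, described as biological replicates. The p-values below measure the spread between these libraries only. Per the study's methods, both media held LIF, a cytokine that keeps ESCs undifferentiated. Serum medium held fetal calf serum, and 2i medium was serum-free with PD0325901, an inhibitor of MEK, and CHIR99021, an inhibitor of GSK3. The cells were sorted before RNA was extracted. The cell line and the number of clones behind these libraries are not given in the sources used here.

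Before each S-phase, a cell has to hold the enzymes that copy its genome. DNA polymerase α and its primase subunits lay down a short RNA-DNA primer, the clamp loader places the ring-shaped sliding clamp PCNA on the primed end, and polymerases δ and ε extend it on the lagging and the leading strand. On the lagging strand, the flap endonuclease FEN1 removes the primer and DNA ligase 1 seals the fragments. Many of the genes are known targets of the E2F transcription factors, which are held in check by the RB family proteins during G1-phase.

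The promoters are shown for their match to the letters that E2F factors are known to prefer. RefSeq promoter windows (250 bases before to 50 bases after the start, table build GRCm38.p6) were held for 8 of the 10 genes in 11 windows. Each was placed on build NCBIM37, which is mm9, by an exact match. They were searched on both strands for 8-base words of the E2F type (TTTCCCGC, TTTCGCGC, TTTGCCGC, TTTGGCGC). The 8-base words occurred in Pola1, Lig1 and Pold1, 3 of 8 genes, against 2.61% of all 27025 genes with a window. By window, 2.26% of all 32851 promoters held one. Lig1 had more than 1 window. Its 8-base word lay in the window chr7:13863925-13864224, and the windows chr7:13862274-13862573 and chr7:13864364-13864663 held none. Pole and Prim2 were not searched. Positions count from the start site of the window, negative before it. The following are shown 5′ to 3′ on the strand of the gene, 1 match for each gene, with the matched word in capitals on either strand.
Pola1, chrX:90877614-90877643, minus strand, word at -138 to -131: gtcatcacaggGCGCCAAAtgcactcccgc
Lig1, chr7:13864190-13864219, plus strand, word at 27 to 34: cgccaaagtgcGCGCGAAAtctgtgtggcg
Pold1, chr7:51804136-51804165, minus strand, word at 40 to 47: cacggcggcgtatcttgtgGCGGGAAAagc

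A match describes letters only and does not show that a factor binds there.

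Reads assigned to the 14533 genes ranged from 18939401 to 26570098 per library, and these 10 genes took from 0.0926% to 0.151% of them. The smallest read count of any of the 10 genes in any library was 667, where counting error alone amounts to 3.87%. The libraries differed in makeup. The share of reads from protein-coding genes was 46.9% in serum replicate 1 and 76.3% in its replicate, and the 2i libraries lay between these values. All 8 ESC markers looked for were in the table, with a median log2 fold change, serum over 2i, of -0.03. Their summed normalized counts ranged from 49352 to 66180 in serum and from 59759 to 80141 in 2i. Of 6 primitive endoderm markers 4 were in the table, with sums of 72.0 and 109 in serum against 332 and 256 in 2i. Of 6 fibroblast markers 2 were in the table, with sums of 230 and 193 against 199 and 58.2. The part of these cell types in the results below was not tested.

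Of the 10 genes, 8 had a higher mean log2 level in serum ESCs, and the median log2 fold change, serum over 2i, was 0.55, against 0.0047 over all 13005 genes tested. For 4 of the 10 genes, Lig1, Pole, Rfc1 and Pola2, both serum values lay above both 2i values. Prim1, Pcna and Fen1 were low in 2i replicate 1 alone, Prim2 and Pold1 showed overlapping values throughout, and Pola1 was far higher in 2i replicate 1 than in any other library. With limma, 0 of the 10 genes passed an adjusted p-value under 0.05 with a 2-fold change, which 0.0154% of all genes tested did (2 of 13005). At an unadjusted p-value under 0.05, 0 of the 10 passed, while 5.97% of all genes tested did with a difference of at least 2-fold, of which 386 genes, or 2.97% of those tested, were higher in serum. edgeR called 0 of the 10 and 0 of all genes tested, so that its count does not set the 10 apart. DESeq2 called 0 of the 10, against 251 of the 13005 genes tested. With DESeq2 and no limit on the fold, 1 of the 10, Lig1, had an unadjusted p-value under 0.05, as did 13.2% of all genes tested. Serum values lay above both 2i values for 20.5% of all genes tested and below both for 19.4%, so that 4 of 10 and 0 of 10 are read against these shares. For the same 4 genes the difference between the condition means was larger than both differences between replicates, as it was in either direction for 26.3% of all genes tested. Without 2i replicate 1, 5 of the 10 genes had a higher mean log2 level in serum. The median of the 10 genes was then 0.25, and it was 0.36 when serum replicate 2 was left out instead. Without 2i replicate 1, both serum values lay above the remaining 2i value for Lig1, Pola1, Pola2, Pole and Rfc1, 5 of 10, against 38.0% of all genes tested. In bulk RNA, fewer cells with a transcript and less of the transcript per cell cannot be told apart. Of the 4 genes whose serum values lay above both 2i values, Lig1 held an E2F-type 8-base word in the window shown above. Its other windows held none, and Pole was not searched. Pold1 and Pola1, with overlapping values, also held such a word. The plot of normalized counts shows each gene in each library.

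**Figure D1:**
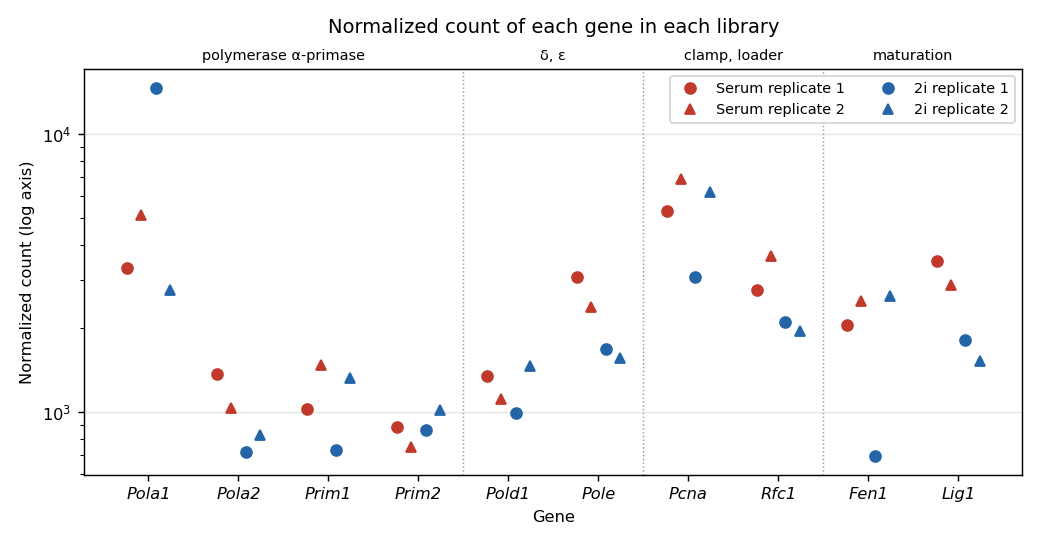
Normalized count (log axis) of the 10 genes in the 4 libraries, grouped by role. Red marks serum and blue 2i, circles replicate 1 and triangles replicate 2. Both red symbols lie above both blue symbols for Pola2, Pole, Rfc1 and Lig1, and the 2i replicate 1 value of Pola1 stands at 14732, the highest of all.

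The last step of lagging strand synthesis held the gene with the smallest p-value. Lig1 (ENSMUSG00000056394, chr7:13862632-13896782, plus strand, build mm9) encodes DNA ligase 1, which joins Okazaki fragments. Its normalized counts were 3505 and 2864 in the serum libraries, replicate 1 first as in all pairs of values below, against 1812 and 1526 in the 2i libraries. Both serum libraries were above both 2i libraries, and the replicates of each condition were close to each other. The level was 1.91-fold higher in serum, with a 95% interval of 0.922 to 3.94 (log2 fold change 0.93 ± 0.43, SE; limma, p-value 0.0732, adjusted p-value 0.753). Each of the 4 pairs of a serum and a 2i library gave a higher value in serum. Of the 43-base words in its transcripts, 43 bases being the read length, 95.8% occur in no other gene. The rest are shared with 6330408A02Rik on the opposite strand, which had at most 160 normalized counts in any library.

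Fen1 (ENSMUSG00000024742, chr19:10273622-10278659, minus strand) encodes the nuclease that trims the flap left by the displaced primer. The serum libraries held 2058 and 2506 normalized counts of it, against 692 and 2612 in the 2i libraries. The conditions overlapped, since 2i replicate 2 held the highest value and 2i replicate 1 the lowest. The replicates of 2i differed by 3.77-fold, while the fitted difference was 1.69-fold (log2 fold change 0.76 ± 0.68, SE; limma, p-value 0.308, adjusted p-value 0.791). Without 2i replicate 1 the log2 fold change was -0.20. Only 23.5% of the 43-base words of Fen1 are its own when strand is ignored, because 1810006K21Rik and Gm10143 overlap it on the opposite strand, and 100% are its own when strand is used. Whether strand was used in counting is not given in the sources used here. For 1810006K21Rik the normalized counts were 2223 and 787 with serum against 862 and 1444 with 2i, so reads assigned to either gene can move the value of the other.

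Of the polymerases that extend the primer, 1 stood with the higher serum values. Pole (ENSMUSG00000007080, chr5:110715325-110766493, plus strand) encodes the catalytic subunit of polymerase ε, the main leading strand enzyme. Serum ESCs showed 3064 and 2393 normalized counts against 1693 and 1562 for 2i ESCs, with no overlap between the conditions. The difference was 1.66-fold with a 95% interval of 0.809 to 3.43 (log2 fold change 0.74 ± 0.43, SE; limma, p-value 0.137, adjusted p-value 0.753). Pold1 (ENSMUSG00000038644, chr7:51788116-51804219, minus strand), the catalytic subunit of polymerase δ, was measured at 1344 and 1113 normalized counts for serum, against 996 and 1467 for 2i. Both Pold1 extremes were 2i libraries, and the log2 fold change was 0.017 ± 0.45 (SE; limma, adjusted p-value 0.993). Its 95% interval on the log2 scale ran from -1.06 to 1.10, so that a 2-fold difference either way was not excluded by these 4 libraries.

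The sliding clamp had the highest count of the group in 3 of the 4 libraries. Pcna (ENSMUSG00000027342, chr2:132074898-132079050, minus strand) encodes the ring that tethers polymerases to DNA. Its normalized counts reached 5279 and 6907 with serum, against 3073 and 6184 with 2i. The value of 2i replicate 2 lay between the serum values, and that of 2i replicate 1 was lower by itself, 2.01-fold below its replicate. The log2 fold change was 0.47 ± 0.54 (SE; limma, p-value 0.419, adjusted p-value 0.846), and -0.03 without 2i replicate 1. Of the 43-base words of Pcna 83.0% are its own, and the rest are shared with a pseudogene, Pcna-ps2, which had from 191 to 673 normalized counts. Rfc1 (ENSMUSG00000029191, chr5:65653091-65726909, minus strand), the large subunit of the clamp loader, was measured at 2755 and 3649 normalized counts for serum, against 2113 and 1957 for 2i. All 4 pairs of libraries were higher in serum for Rfc1. The difference was 1.56-fold with a 95% interval of 0.748 to 3.25 (log2 fold change 0.64 ± 0.44, SE; limma, p-value 0.192, adjusted p-value 0.759).

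The 4 genes of the polymerase α-primase complex did not share a pattern. Pola2 (ENSMUSG00000024833, chr19:5940543-5964206, minus strand), the accessory subunit of polymerase α, stood at 1376 and 1030 normalized counts for serum against 719 and 827 for 2i, again without overlap. The difference was 1.54-fold with a 95% interval of 0.749 to 3.18 (log2 fold change 0.63 ± 0.43, SE; limma, p-value 0.196, adjusted p-value 0.759). Prim1 (ENSMUSG00000025395, chr10:127452228-127467093, plus strand), the catalytic primase subunit, stood at 1030 and 1474 for serum against 729 and 1322 for 2i. Its 2i replicate 2 lay between the serum values, and its log2 fold change was 0.33 ± 0.50 (SE; limma, adjusted p-value 0.893), or -0.10 without 2i replicate 1. Prim2 (ENSMUSG00000026134, chr1:33510656-33726631, minus strand), the regulatory primase subunit, stood at 885 and 751 for serum against 863 and 1014 for 2i. These overlapped, and the log2 fold change was -0.20 ± 0.42 (SE; limma, adjusted p-value 0.924).

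Pola1 (ENSMUSG00000006678, chrX:90550106-90877494, minus strand), the catalytic subunit of polymerase α, stood apart from its partners. It had 3309 and 5145 normalized counts in serum replicates 1 and 2, 14732 in 2i replicate 1 and 2757 in 2i replicate 2. The lowest and the highest value were both from 2i, and the replicates of 2i differed by 5.34-fold. In 2i replicate 1 this gene took 53.7% of the reads of all 10 genes, against 13.0% to 18.5% in the other libraries. A difference between the 2i replicates at least as high was found for 8.04% of all genes tested. The log2 fold change was -0.63 ± 0.83 (SE; limma, p-value 0.478, adjusted p-value 0.868), and 0.58 without 2i replicate 1. When Pola1 was left out after its values had been seen, the median over the other 9 genes was 0.63. Of its 43-base words 98.7% are its own. The values of Dna2, the helicase and nuclease of flap processing, Polg2, the accessory subunit of the mitochondrial polymerase, and Timeless, a fork protection factor, were also highest in 2i replicate 1. Dna2 and Polg2 were singled out after their values were seen. Their lists did not all go this way. Of the 30 other fork genes described below, 8 were higher in 2i replicate 1 than in replicate 2 and 22 lower. Of the 15 other polymerases and ligases, 9 were higher and 6 lower. Dna2 had 4219 normalized counts there against 683 in 2i replicate 2, Polg2 had 1137 against 219, and Timeless had 6215 against 1771.

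**Figure D2:**
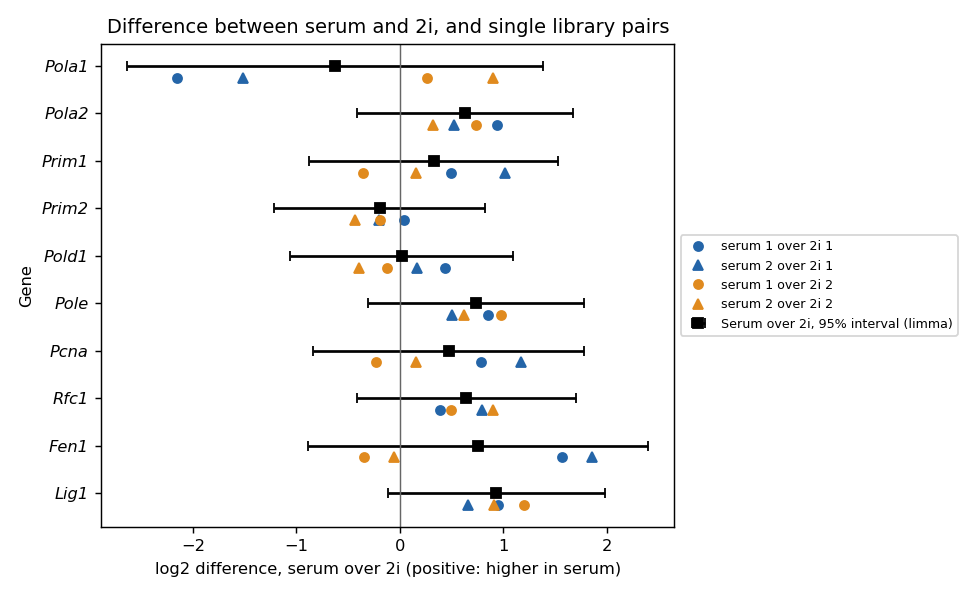
Log2 difference, serum over 2i, for each gene. Black squares with bars are the limma estimates with 95% intervals, and coloured symbols below them are the 4 single pairs of a serum and a 2i library. All bars cross 0, all 4 pairs lie to the right of 0 for Pola2, Pole, Rfc1 and Lig1, and the pairs with 2i replicate 1 (blue) stand apart from those with 2i replicate 2 (orange) for Pola1 and Fen1.

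The difference between the 2i replicates moved with transcript length over all genes. Spearman's rho of the log2 difference, 2i replicate 1 over replicate 2, with the length of the longest coding transcript was 0.30 across 11818 genes, which share the same 2 libraries and are not independent. Below 1938 bases the median difference was -0.51, and above 4458 bases it was 0.36. Pcna and Prim1, with 1518 and 1583 bases the shortest of the 10 genes, had differences of -1.01 and -0.86. Pola1, Rfc1 and Pole, with 5346, 4751 and 7163 bases the longest, had 2.42, 0.11 and 0.12. For serum over 2i, the rho was 0.19 with length and -0.33 with GC content. After a correction for GC content and length in each library, Pola1 still differed by 4.09-fold between the 2i replicates and the log2 difference of Fen1 was -1.78. The log2 difference was -0.61 for Pcna, -0.46 for Prim1 and -0.16 for Rfc1, and that of Pole turned to -0.52. For Pold1 it grew from -0.56 to -0.81. It was -0.07 for Pola2, 0.05 for Prim2 and 0.19 for Lig1. In that fit the log2 fold change, serum over 2i, was 1.16 ± 0.38 for Lig1 (SE; limma, p-value 0.0191, adjusted p-value 0.619) and 0.99 ± 0.38 for Pola2 (SE; limma, p-value 0.0339, adjusted p-value 0.628). The other 8 genes had unadjusted p-values from 0.117 to 0.713 there. In the same fit 7.90% of 11818 genes had an unadjusted p-value under 0.05, against 2 of the 10. The median log2 fold change of the 10 genes was 0.43 in that fit, against 0.099 over all genes.

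**Figure D3:**
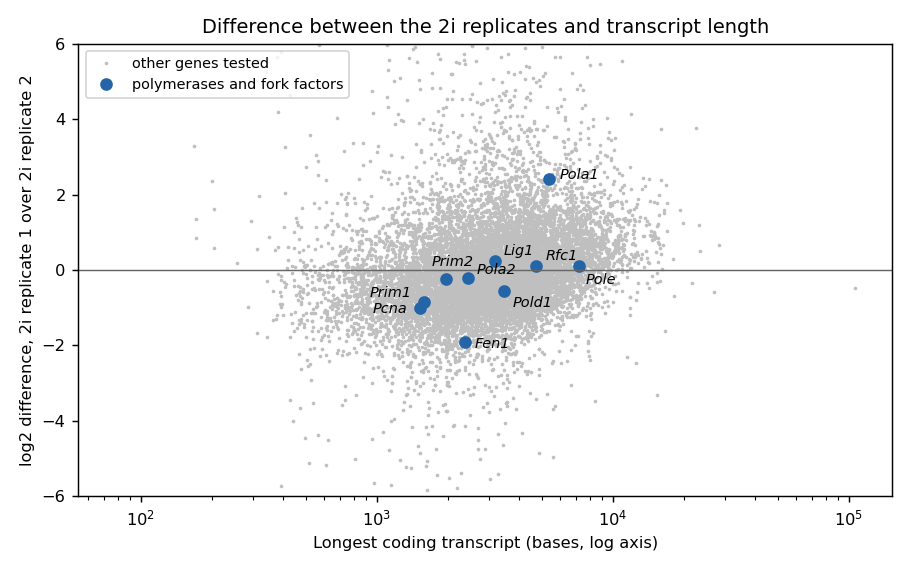
Log2 difference between the 2i replicates against the length of the longest coding transcript (log axis). The 10 genes are in blue and the 11818 genes tested that have such a transcript in grey. The vertical axis stops at 6 in both directions, which leaves out 116 of these 11818 genes. Pola1 lies far above 0 at 2.42 and Fen1 far below at -1.91, while Lig1, Rfc1 and Pole lie near 0.

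Levels between genes were compared per kilobase of the longest coding transcript. Pcna had 3477 and 4550 normalized counts per kilobase in serum and 2024 and 4074 in 2i. It stood above every other gene of the group in each library, except that Pola1 reached 2756 per kilobase in 2i replicate 1. Next in serum by the mean came Lig1 with 1107 and 905 per kilobase, Fen1 with 867 and 1056, Pola1 with 619 and 962 and Prim1 with 650 and 931. Their ranges overlapped, so these neighbours in the order did not differ beyond their spread. Rfc1 followed with 580 and 768 per kilobase, Pola2 with 568 and 425 and Prim2 with 451 and 382. The lowest in serum were Pole with 428 and 334 and Pold1 with 389 and 322 per kilobase, which overlapped with each other and with Prim2. In 2i the lowest mean was that of Pole, with 236 and 218 per kilobase, below both Pold1 values of 288 and 425. Pola2, with 297 and 341 per kilobase, lay above both Pole values, and its range overlapped that of Pold1. The highest in 2i after Pcna was Pola1, with 2756 and 516 per kilobase, and its mean rested on replicate 1.

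**Figure D4:**
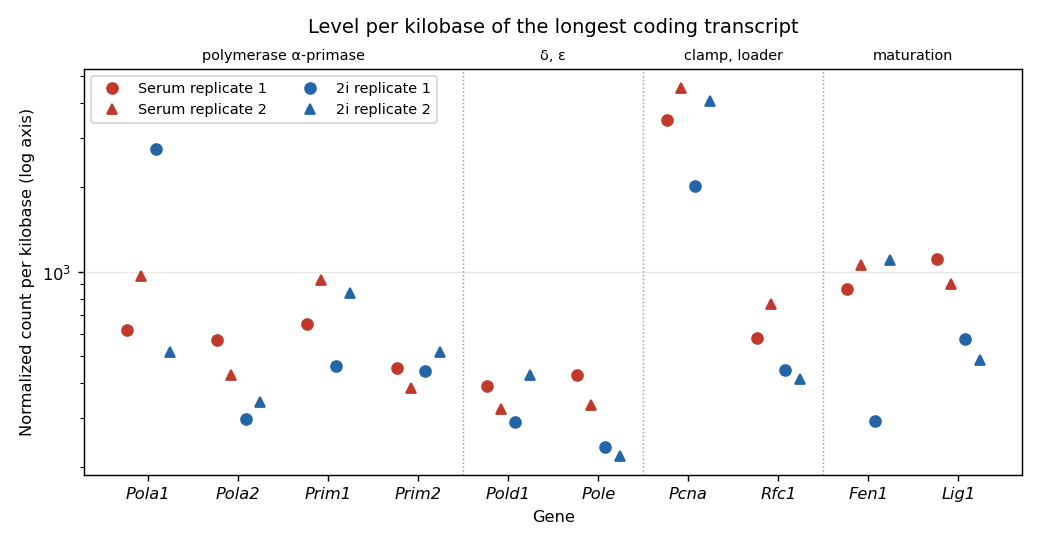
Normalized count per kilobase of the longest coding transcript (log axis) for the 10 genes in the 4 libraries, with colours for condition and shapes for replicate. Pcna lies highest in serum at 3477 and 4550 per kilobase, and the remaining genes lie between 322 and 1107 in serum.

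Other genes of the fork were listed by their role and not by how they moved, though earlier results of these data were known. Of 30 other fork genes, 20 had a higher mean log2 level in serum, the median log2 fold change was 0.33, and 0 were called. Serum lay above both 2i values for 12 of the 30 and below for 2, against the 20.5% and 19.4% given above. At an unadjusted p-value under 0.05, 0 of the 30 passed with limma. Among the clamp loaders and unloaders 7 of 8 were higher in serum, from Rfc2 at -0.22 to Dscc1, a subunit of the alternative loader that acts in sister chromatid cohesion, at 1.08. Among the subunits of polymerases δ and ε 3 of 6 were higher, from Pold4 at -1.25 to Pole3 at 0.92. For Dscc1 the serum libraries held 431 and 443 normalized counts against 190 and 225 with 2i. The values of the conditions overlapped for 5 of the 8 genes of its group, against 7818 of all 13005 genes tested.

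RPA, which coats single-stranded DNA, had overlapping values for all 3 subunits, from Rpa3 at -0.56 to Rpa2 at 0.54. The genes of RNA primer removal and flap processing ran from Rnaseh2c at -0.49 to Rnaseh1 at 0.42, with 2 of 5 higher in serum. Rnaseh2c encodes a subunit of an RNase H enzyme and Rnaseh1 another such enzyme, and both enzymes cut RNA in RNA-DNA hybrids. Fork protection genes ran from Timeless at -0.65 to Clspn, a checkpoint mediator, at 1.05, with 3 of 5 higher. All 3 topoisomerases were higher in serum, from Top2b at 0.09 to Top1 at 1.34, and Top1 held 1467 and 4111 normalized counts with serum against 1383 and 677 with 2i. Leaving out 2i replicate 1 put the median of the 30 genes at -0.05, and leaving out 2i replicate 2 put it at 0.67. With serum replicate 1 left out it came to 0.54, and with serum replicate 2 left out to 0.14.

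Polymerases and ligases outside the normal fork, which act in repair, translesion synthesis and mitochondria, gave a median close to that of the other fork genes. Of 16 listed 15 were in the table, 11 were higher in serum, the median was 0.32 and 0 were called. They ran from Poll, a repair polymerase, at -0.87 to Lig4, the ligase of end joining, at 1.16. Serum lay above both 2i values for 7 of 15 and below for 2, against 20.5% and 19.4% of all genes tested. With limma, 0 of the 15 passed an unadjusted p-value under 0.05. With serum replicate 1 left out the median of these genes came to -0.00054, and with 2i replicate 2 left out to 0.14. The median of the 10 replicative genes was 0.55 with all libraries. Without 2i replicate 1 it was 0.25, below the 0.47 of these polymerases and ligases, and with serum replicate 2 left out it was 0.36 against their 0.40. The difference between lists was not tested.

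The libraries were from cells sorted for G1-phase, so genes of the later G2/M-phase are given beside these values. Of 18 G2/M genes 17 were higher in serum with a median log2 fold change of 1.62. Both serum values lay above both 2i values for 15 of the 18, against 20.5% of all genes tested. Of them 13 had an unadjusted p-value under 0.05, all higher in serum, against 2.97% of all genes tested, and 0 of 18 were called. Tpx2, a spindle assembly factor, stood at 2607 and 3557 normalized counts for serum against 813 and 543 for 2i (log2 fold change 2.19; limma, p-value 0.00263, adjusted p-value 0.753). Summed over the list, normalized counts were 35723 and 50196 in serum and 17576 and 13375 in 2i. Both sums were higher with serum, as were Lig1, Pole, Rfc1 and Pola2, but the replicates did not all follow the sums. From serum replicate 1 to replicate 2 the sum rose, as did Rfc1 (2755 to 3649). Lig1 (3505 to 2864), Pole (3064 to 2393) and Pola2 (1376 to 1030) fell there. From 2i replicate 1 to replicate 2 the sum fell, as did Lig1, Pole and Rfc1, while Pola2 rose (719 to 827). The part of the G2/M transcripts in the values of these 4 genes was not tested.

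**Figure D5:**
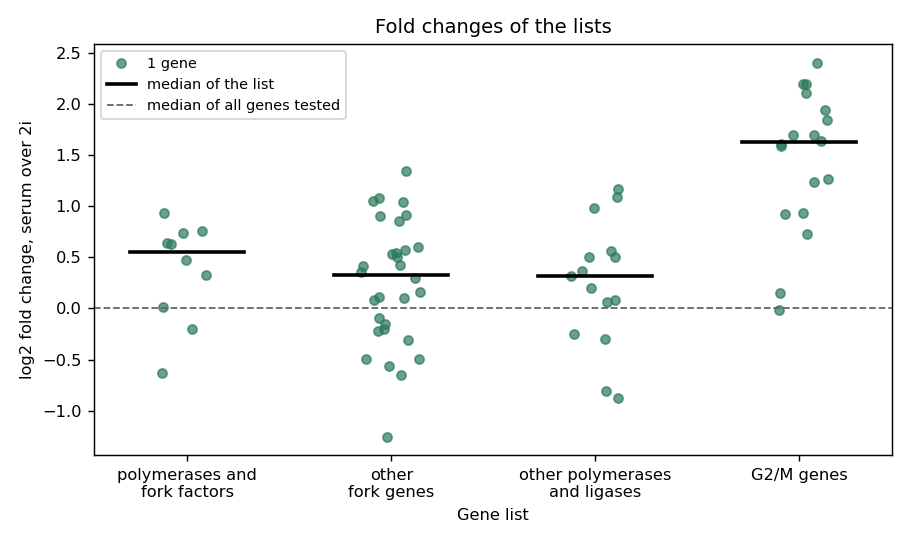
Log2 fold change, serum over 2i, of each gene (points) in 4 lists with the median of each list (bar) and of all genes tested (dashed line). The medians are 0.55 for the polymerases and fork factors, 0.33 and 0.32 for the other fork genes and the other polymerases and ligases, and 1.62 for the G2/M genes.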

How the data were processed

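Per the study's methods, RNA of sorted ESCs was depleted of ribosomal RNA, made into libraries with the TruSeq kit and sequenced in single reads of 43 bases. The authors aligned reads with Bowtie to mm9 and estimated transcripts with MMSeq. The strand setting and versions are not given in the sources used here. The authors deposited a signal: counts per gene after division by a size factor for each library. All values (100%, within 0.01) came out as whole reads when divided by the smallest value of their library, and size factors recomputed with DESeq2 (1.42.0) differed by at most 4.56e-10. The smallest value of serum replicate 1, 1.00052, is so close to 1 that its column was not marked as recovered reads, so its read total and the edgeR and DESeq2 fits rest on this division. Gene models came from GENCODE vM1 on NCBIM37, the same build as mm9. It named 14462 of the 14533 genes, and Primpol was matched through its older symbol Ccdc111.

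Genes reaching an average of 50 normalized counts in serum or in 2i were tested with limma (3.58.1, R 4.3.3) with trend on log2(normalized count + 1), a scale that understates changes of low genes, and p-values were adjusted over 13005 genes by Benjamini-Hochberg. A call required a difference of 2-fold and an adjusted p-value under 0.05. Intervals come from this fit. The study used DESeq2, which with edgeR (4.0.16) on whole reads was an alternative. Fits were checked on simulated data with planted changes larger than those of the 10 genes. The spread set there was not taken from these libraries, so the check does not show what the fits can detect here. The GC and length correction used mgcv (1.9.3). The members and gene lists were chosen with earlier results of these data known, so lists have counts and medians without a test. All 10 members were named, and of other lists genes with an unadjusted p-value under 0.05 or the ends of each subgroup, unless stated otherwise. Some promoter matches are not reported here.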

Additional observations from a re-analysis of the deposited data

How the results depend on the processing

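Of 160 values of the 10 genes under an alternative, 151 kept their direction, 0 passed an adjusted p-value under 0.05 and 9 reversed. The reversals without 2i replicate 1 were Pola1 (0.58), Prim1 (-0.10), Pold1 (-0.26), Pcna (-0.034) and Fen1 (-0.20), and Pold1 also reversed without serum replicate 1 (-0.12), under upper quartile scaling (-0.10), with edgeR (-0.032) and with DESeq2 (-0.021). Over the 4 libraries left out in turn, the log2 fold change ran from -1.84 to 0.58 for Pola1, from -0.10 to 0.76 for Prim1, from -0.26 to 0.30 for Pold1, from -0.034 to 0.97 for Pcna and from -0.20 to 1.71 for Fen1. Upper quartile scaling put the median of all genes at -0.12. Leaving out 1 library at a time moved the median from 0.25 to 0.70 for the 10 genes, from -0.046 to 0.67 for the other fork genes, from -0.00054 to 0.47 for the other polymerases and ligases and from 1.34 to 1.88 for the G2/M genes. The lone library of a condition was then assumed to vary like the others. The lower ends came without 2i replicate 1 for the 10 genes and the other fork genes, without serum replicate 1 for the polymerases and ligases, and without 2i replicate 2 for the G2/M genes.

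Over all genes, limma called 2. The count was 4 with a mean of at least 200, 0 after the GC and length correction, 1 without trend, 0 with edgeR, 251 with DESeq2, 0 without any 1 of the libraries, 776 at an unadjusted p-value under 0.05, and 1580 with DESeq2 at an unadjusted p-value, which was added after seeing the data. With the replicate number as a block, 203 genes were called, and 4 with the block and the correction. Same-numbered replicates deviated together over genes (Pearson's r 0.48, 2 pairs), but nothing in the labels shows that the numbers pair the samples. The block called 0 of the 10 genes. The cause of these moves was not tested.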
